A study of Mus musculus with 16 samples.

Results

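The 10 enzymes and conjugating proteins that convert cholesterol into conjugated bile acids were followed in the livers of mice that lack Cpt1a in that organ. The set was Cyp7a1, Cyp8b1, Cyp27a1, Cyp7b1, Hsd3b7, Akr1d1, Akr1c6, Cyp2c70, Slc27a5 and Baat, taken by exact gene name. They were 10 of 25803 genes in the joined count tables, and all 10 passed the filter on low counts. The animals were male, ate a high-fat diet (HFD) for 12 weeks, and were either Control or CPT1a LKO (a liver knockout). At necropsy they had fasted for 16 h (Fasted) or had been fed again for 6 h after such a fast (Refed). Bulk RNA sequencing of liver gave 16 libraries, 4 per combination of genotype and feeding state. The design text calls the controls WT. How the gene was deleted, which promoter drove the deletion and the age of the mice are not given in the sources used here, and whether each library is a separate mouse is not stated in the labels. P-values therefore measure the spread between these libraries. Count columns carry the names S40 to S55. Fasted control takes S40 to S43, fasted LKO takes S44 to S47, refed control takes S48 to S51 and refed LKO takes S52 to S55.

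Bile acids are made from cholesterol in hepatocytes by a classic and an alternative route. Cyp7a1 starts the classic route and is its rate-limiting step, Cyp8b1 adds the 12-alpha-hydroxyl group that makes cholic acid, and Cyp27a1 and Cyp7b1 serve the alternative route, with Cyp27a1 also oxidising the side chain in the classic one. Hsd3b7 and Akr1d1 reshape the steroid rings, Cyp2c70 makes the muricholic acids of rodents, and Slc27a5 and Baat activate bile acids and join them to taurine or glycine. In liver, bile acids repress Cyp7a1 and Cyp8b1 through the receptor encoded by Nr1h4 and the corepressor encoded by Nr0b2.

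The RefSeq promoter table (GRCm38.p6) matched 6 of the 10 genes: Cyp8b1, Cyp27a1, Hsd3b7, Akr1d1, Akr1c6 and Cyp2c70. The 250 bases before the start site are printed for Cyp8b1 and Cyp2c70, because Cyp8b1 was the only one of the 10 called higher in LKO and Cyp2c70 the only one called lower in both feeding states. Capitals mark matches to CAAAGNNCA, the core letters of binding sites for the liver factor HNF4A, searched on both strands. Both sequences are on the minus strand, at chr9:121916306-121916555 for Cyp8b1 and chr19:40187287-40187536 for Cyp2c70.
Cyp8b1: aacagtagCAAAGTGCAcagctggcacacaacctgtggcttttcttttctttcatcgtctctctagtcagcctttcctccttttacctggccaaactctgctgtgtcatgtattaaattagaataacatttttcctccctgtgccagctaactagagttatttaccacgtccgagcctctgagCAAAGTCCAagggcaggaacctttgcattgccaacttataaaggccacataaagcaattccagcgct
Cyp2c70: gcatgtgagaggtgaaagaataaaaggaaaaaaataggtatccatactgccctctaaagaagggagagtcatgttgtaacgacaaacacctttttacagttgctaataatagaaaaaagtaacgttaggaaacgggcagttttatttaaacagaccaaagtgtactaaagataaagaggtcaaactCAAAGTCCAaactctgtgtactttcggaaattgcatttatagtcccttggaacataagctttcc
The same 9 letters, CAAAGTCCA, begin 67 bases before the Cyp8b1 start and 64 bases before the Cyp2c70 start, and Cyp8b1 holds another match, CAAAGTGCA, 242 bases before its start. Hsd3b7 has a match on its other strand (TGTCCTTTG, 133 bases before the start). The motif occurs in 6.36% of 32851 RefSeq windows of 300 bases, which run from 250 bases before to 50 bases after a start. CAAGGNCA, the core letters for LRH-1 (the product of Nr5a2), was found before Cyp8b1 (60 bases, overlapping the HNF4A-type match at its last letters) and Akr1c6 (42 bases), and in 6.71% of windows. TATAAA was found on the gene strand of Cyp8b1 (31 bases before the start) and Akr1c6 (164 bases), on the other strand of Cyp2c70 (29 bases), and in 13.6% of windows. TTATGNAA is a loose pattern like the core of the D-box of the circadian bZIP factors, with any base at N. It was found before Cyp27a1 (TTATGAAA, 60 bases) and Akr1d1 (TTATGCAA, 8 bases), and in 3.38% of windows. Such matches describe letters only.

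Libraries held 14721601 to 24618230 counts. Levels are given as CPM, the counts of a gene per megacount of a library after TMM scaling. Cpt1a, the targeted gene, ranged from 378 to 556 CPM in control and from 86.1 to 126 CPM in LKO after the fast, and from 319 to 620 and from 39.9 to 75.2 CPM after refeeding, so no LKO library reached a control library. The summed level of 7 hepatocyte markers (among them Alb, Ttr and Fgb) was 61546 to 91159 CPM across the libraries. The fasted LKO library S44 stood apart in some cholangiocyte markers: Krt19 was at 29.0 CPM there and at 0.850 to 2.22 in the other libraries, Krt7 at 4.59 against 0.117 to 1.66, and Epcam at 7.89 against 0.756 to 2.33. It did not stand apart in Sox9 (4.39 CPM, with 7.58 in S47) or Spp1 (34.9 CPM, with 54.6 in S47). Cftr, of the same list, reached at most 0.150 CPM in any library. Without S44, 1048 genes were called in the fasted genotype comparison in place of 1772, and 3 of the 10 enzymes in place of 4. The log2 fold changes (LKO over control) were then 1.22 for Cyp8b1, -1.02 for Akr1c6 and -1.52 for Cyp2c70, all called by edgeR (adjusted p = 0.0288, 0.00142 and 0.0191), and -0.40 for Slc27a5, which was not (0.0603).

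Compared per kb of gene length, the 10 transcripts lay far apart within a group. In fasted control livers the order of mean levels was Akr1c6 (498 ± 43.6 CPM per kb), Slc27a5 (441 ± 29.6), Cyp8b1 (290.5 ± 23.4), Cyp27a1 (260 ± 36.9), Baat (119 ± 9.37), Cyp2c70 (65.3 ± 19.4), Cyp7b1 (61.3 ± 19.7), Akr1d1 (32.7 ± 6.08), Cyp7a1 (11.1 ± 2.02) and Hsd3b7 (0.364 ± 0.229; all SD, n = 4). Akr1c6 and Slc27a5, Cyp8b1 and Cyp27a1, and Cyp2c70 and Cyp7b1 were neighbours closer than the sum of their SDs. Cyp8b1 was at 656 ± 168 CPM per kb in fasted LKO, where it ranked 1, at 164 ± 51.8 in refed control, where it ranked 4, and at 284 ± 135 in refed LKO, where it ranked 2. Cyp7a1, the entry enzyme, ranked 9 of 10 in all 4 groups (mean 9.002 to 19.7 CPM per kb).

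**Figure D1:**
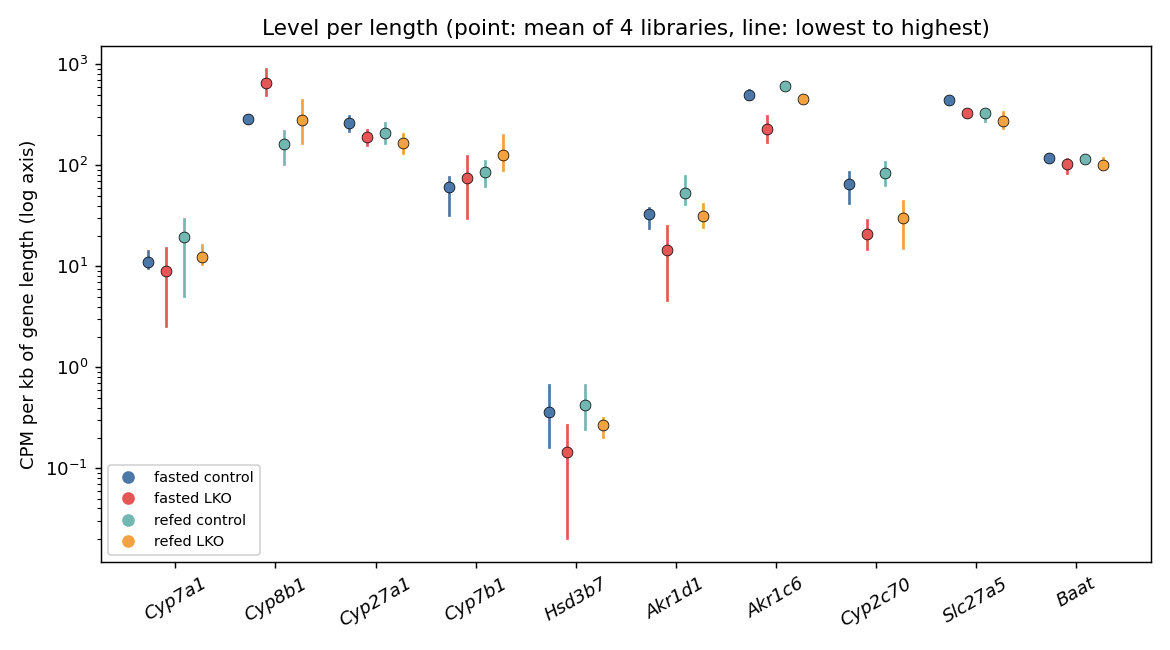
Mean level of each of the 10 genes in the 4 groups, in CPM per kb of gene length on a log axis; points are means of 4 libraries and lines run from the lowest to the highest library. Cyp8b1 ranked 3 in fasted control and 1 in fasted LKO, while Hsd3b7 stayed below 1 CPM per kb.

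After the fast, LKO livers had more Cyp8b1 transcript and less Cyp2c70, Akr1c6 and Slc27a5 than control livers. A gene is called here when its edgeR quasi-likelihood p, Benjamini-Hochberg adjusted over 14488 genes tested, is under 0.05. By that rule 4 of the 10 were called in the fasted comparison (1 higher, 3 lower), where 12.2% of all genes were called (5.75% higher, 6.48% lower). The median log2 fold change of the 10 was -0.44 (LKO over control), beside 0.02 over all genes. In bulk liver, fewer cells of a type and less RNA per cell cannot be told apart. After refeeding 1 of 10 was called, Cyp2c70 (lower), beside 3.63% of all genes (1.35% lower), and the median of the 10 was -0.38 beside -0.01. The comparisons within a feeding state share no libraries with each other, but each shares its groups with the refeeding comparisons.

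For refeeding, edgeR called Slc27a5 lower in control livers, and in LKO livers Cyp8b1 lower and Akr1c6 higher. Those are 1 of 10 called in control (background 15.4%, 7.65% lower) and 2 of 10 in LKO (background 18.1%, 9.28% higher and 8.78% lower). The number was not above the share of all genes in control and was near it in LKO. The same genes moved the same way, uncalled, in the other genotype. Cyp8b1 changed by -0.82 (edgeR adjusted p = 0.0622) and Akr1c6 by 0.29 (0.212) in control, and Slc27a5 by -0.25 (0.144) in LKO. For control livers the median log2 fold change of the 10 (refed over fasted) was 0.24 beside 0.01 over all genes, and for LKO livers 0.50 beside -0.02. In the interaction, which tests whether the effect of LKO differs between feeding states, edgeR called 0 of 10 beside 0.538% of all genes. At an unadjusted p under 0.05 it gave 1 gene (Akr1c6), where 16.5% of all genes passed, DESeq2 called 1 and limma-voom 0. Of 14488 genes, DESeq2 called 458 in the interaction and limma-voom 80.

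**Figure D2:**
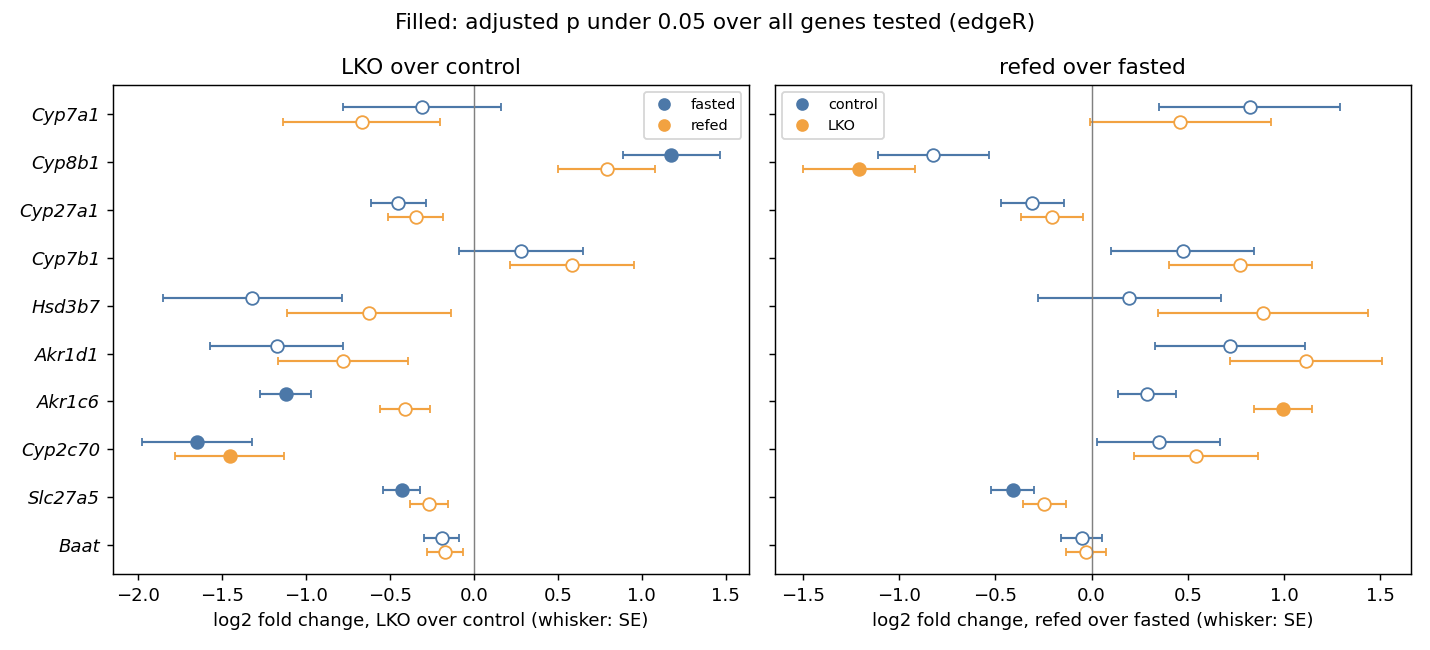
Log2 fold change of each gene for LKO over control in each feeding state (left) and refed over fasted in each genotype (right); whiskers are SE and filled points have an edgeR adjusted p under 0.05. Cyp8b1 lies right of 0 in both LKO comparisons and left of 0 in both refeeding comparisons, and Cyp2c70 is filled in both LKO comparisons.

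Cyp7a1 (ENSMUSG00000028240, chromosome 4: 6265612 to 6275633 in the deposited tables), the rate-limiting enzyme of the classic route, was not called in any comparison. Its levels in S40 to S43 were 58.6, 45.3, 39.9 and 41.8 CPM, and those in S44 to S47 (fasted LKO) were 10.8, 52.9, 64.1 and 22.5 CPM. The fasted LKO libraries lay on both sides of the controls, S44 and S47 below all of them and S46 above. The refed controls (S48 to S51) were at 89.7, 124, 21.1 and 93.8 CPM, with S50 far under the rest, and S52 to S55 held 48.8, 45.8, 44.1 and 67.7 CPM. The log2 fold change for LKO over control was -0.31 ± 0.47 (SE) when fasted (edgeR adjusted p = 0.731) and -0.67 ± 0.47 when refed (adjusted p = 0.480). Without S44, the library with high Krt19, Krt7 and Epcam, the fasted value was 0.0036. For refed over fasted it was 0.82 ± 0.47 in control (adjusted p = 0.258) and 0.46 ± 0.47 in LKO (adjusted p = 0.548). Cyp7a1 also varied more between libraries of a group than nearly all genes: its pooled within-group SD was 0.84 on the log2 CPM scale, above that of 97.6% of genes tested, whose median was 0.23.

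Cyp8b1 (ENSMUSG00000050445, chromosome 9: 121743422 to 121745371), the sterol 12-alpha-hydroxylase, had 621, 514, 548 and 582 CPM in S40 to S43, the fasted controls. In S44 to S47 of fasted LKO it was at 1159, 974, 1740.1 and 1245 CPM, so every fasted LKO library was above every fasted control library. The log2 fold change was 1.18 ± 0.29 (SE; edgeR adjusted p = 0.0145), or 2.26-fold, and without S46, the highest library, it was 0.99 with an adjusted p of 0.0506. After refeeding, S48 to S51 of control held 277, 423, 199.8 and 381 CPM, and S52 to S55 of LKO held 321, 873, 664 and 358 CPM. The refed groups overlapped, with S53 and S54 above all controls, and the log2 fold change of 0.79 ± 0.29 was not called (adjusted p = 0.143). Refeeding took Cyp8b1 down in LKO by 1.21 ± 0.29 on the log2 scale (adjusted p = 0.00839), with no overlap between fasted and refed LKO. In control the change was -0.82 ± 0.29 (edgeR adjusted p = 0.0622) with no overlap either, and DESeq2 (adjusted p = 0.0225), limma-voom (0.0447), an edgeR fit of these groups alone (0.0248) and edgeR without S49 (0.0482) called it. The interaction was -0.39 ± 0.40 (adjusted p = 0.673).

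The transcript ratio of Cyp8b1 to Cyp7a1, both per kb, does not depend on library scaling and is given with no test. After the fast its log2 mean was 4.72 ± 0.20 for control and 6.47 ± 1.13 for LKO (SD, n = 4). After refeeding it was 3.26 ± 0.74 for control and 4.42 ± 0.90 for LKO. Fasted libraries did not overlap: Cyp8b1 stood 22.7 to 29.8 times above Cyp7a1 in control and 39.4 to 230 times in LKO, where S44 with its low Cyp7a1 was highest. Refed libraries overlapped, at 6.62 to 20.2 times in control and 11.3 to 40.8 times in LKO.

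**Figure D3:**
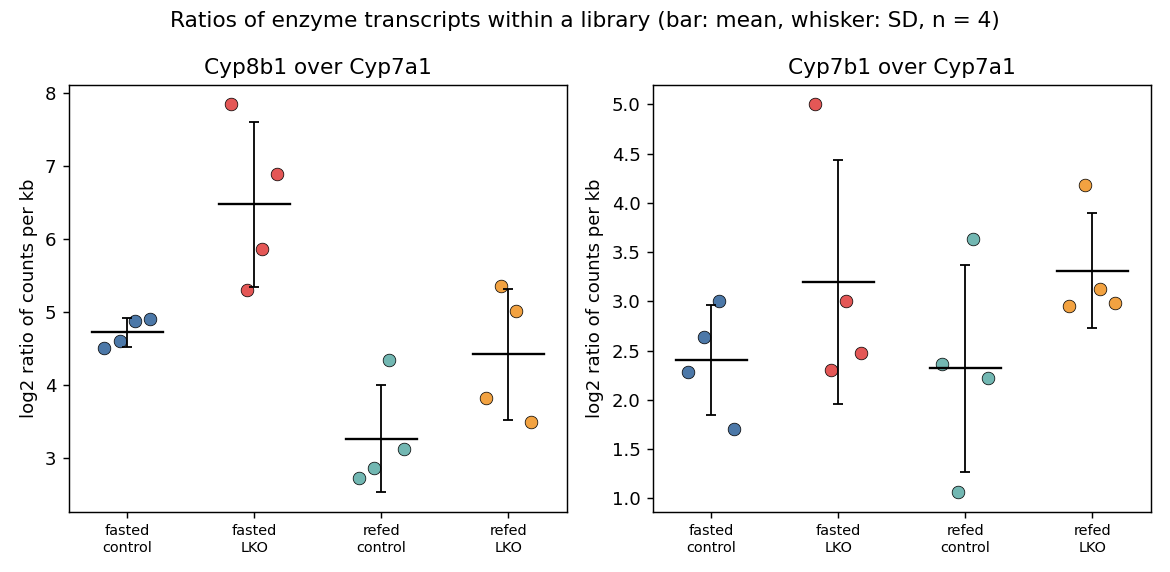
Log2 ratio of Cyp8b1 to Cyp7a1 (left) and of Cyp7b1 to Cyp7a1 (right), in counts per kb, for each library; bars are means and whiskers SD (n = 4). The fasted LKO libraries lie above all fasted controls for Cyp8b1 to Cyp7a1, and the groups overlap for Cyp7b1 to Cyp7a1 in the fasted state.

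Cyp27a1 (ENSMUSG00000026170, chromosome 1: 74752733 to 74777051), the mitochondrial sterol 27-hydroxylase, was at 529, 663, 590.5 and 477 CPM in S40 to S43, and in S44 to S47 it had 365, 484, 462 and 344 CPM. All but 1 of the fasted LKO libraries (S45) were below all controls. The log2 fold change of -0.45 ± 0.16 (SE) was not called (edgeR adjusted p = 0.0837). After refeeding the levels were 498, 569, 363 and 395 CPM in S48 to S51 and 351, 442, 353 and 290.4 CPM in S52 to S55, with a log2 fold change of -0.35 ± 0.16 (adjusted p = 0.270). Both refeeding changes, -0.31 in control and -0.21 in LKO, were not called (adjusted p = 0.220 and 0.426).

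Cyp7b1 (ENSMUSG00000039519, chromosome 3: 18126114 to 18297502), the oxysterol 7-alpha-hydroxylase of the alternative route, was not called in any comparison. Its levels were 148, 146, 167 and 70.5 CPM in fasted control (S40 to S43) and 179, 136, 266 and 64.8 CPM in fasted LKO (S44 to S47). S43 and S47 were the low library of each group, and the groups overlapped throughout. In refed control it was at 240.5, 134, 136 and 227 CPM (S48 to S51) and in refed LKO at 196, 430.4, 200.04 and 278 CPM (S52 to S55). LKO over control was 0.28 ± 0.37 (log2, SE) when fasted (edgeR adjusted p = 0.678) and 0.58 ± 0.37 when refed (adjusted p = 0.429). The log2 ratio of Cyp7b1 to Cyp7a1 per kb averaged 2.41 ± 0.56 for control and 3.19 ± 1.24 for LKO when fasted, and 2.32 ± 1.05 and 3.31 ± 0.58 when refed (SD, n = 4), and the groups overlapped in both feeding states.

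Hsd3b7 (ENSMUSG00000042289, chromosome 7: 127399776 to 127402974), the steroid dehydrogenase that acts after 7-alpha-hydroxylation, was counted at very low levels. After the fast it had 9 to 29 counts per control library and 1 to 12 per LKO library, and after refeeding 16 to 27 and 11 to 16, or 0.0560 to 1.83 CPM in all. In the GENCODE M21 transcripts it is 100% identical over 1667 of 1828 bases to Gm49388, a gene model that was not analysed here. How the authors' counting split reads between these models was not tested, so the level of Hsd3b7 is uncertain. Its log2 fold change was -1.32 ± 0.53 (SE) in fasted LKO over control (edgeR adjusted p = 0.120) and -0.62 ± 0.49 when refed (adjusted p = 0.538), and the groups overlapped in both.

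Akr1d1 (ENSMUSG00000038641, chromosome 6: 37507108 to 37545750), the 5-beta-reductase that gives bile acids their bent ring, was at 69.6, 95.7, 109 and 104 CPM in S40 to S43. Fasted LKO libraries S44 to S47 held 13.6, 60.6, 21.4 and 72.3 CPM. Only S47 of these exceeded a control library, S40. The log2 fold change was -1.17 ± 0.39 (SE), which edgeR did not call (adjusted p = 0.0624), while limma-voom did (0.0220), as did edgeR without S45 (0.0386) or S47 (0.0175). Refed control livers held 143, 229, 129.5 and 120.2 CPM (S48 to S51) and refed LKO 119.6, 101, 70.5 and 71.8 CPM (S52 to S55). The highest LKO library (119.6 CPM) was just under the lowest control (120.2 CPM), and the log2 fold change of -0.78 ± 0.39 was not called (edgeR adjusted p = 0.300). Refed over fasted was 0.72 ± 0.39 in control (adjusted p = 0.229) and 1.11 ± 0.39 in LKO (adjusted p = 0.0603). An edgeR fit of the control groups alone called the former (adjusted p = 0.0446). For LKO, limma-voom (0.0212) and edgeR without S45 (0.0400) or S47 (0.0171) called the rise.

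Akr1c6 (ENSMUSG00000021210, chromosome 13: 4484305 to 4507876), an aldo-keto reductase that acts on ketosteroids, was the most abundant of the 10 per kb in 3 of the 4 groups. Its levels were 916, 1128, 982 and 1024 CPM in S40 to S43 and 364, 634, 350.2 and 517 CPM in S44 to S47. All fasted LKO libraries were below all fasted controls, with a log2 fold change of -1.12 ± 0.15 (SE; edgeR adjusted p = 0.000357), or 0.460-fold. In the refed state it was at 1286, 1257, 1161 and 1238 CPM in control (S48 to S51) and at 1019, 957, 853 and 887 CPM in LKO (S52 to S55). Those groups also did not overlap, but the log2 fold change was -0.41 ± 0.15 and was not called (edgeR adjusted p = 0.144). An edgeR fit of the refed groups alone called it (adjusted p = 0.0355).

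Refeeding raised Akr1c6 in LKO by 0.99 ± 0.15 (log2, SE; edgeR adjusted p = 0.000383), with no overlap, and changed it by 0.29 ± 0.15 in control (adjusted p = 0.212), also with no overlap. The interaction of 0.71 ± 0.21 had an unadjusted p of 0.00401 and an edgeR adjusted p of 0.115, so a difference between the feeding states was not called, although DESeq2 and edgeR without S45 called it. Over all alternatives its adjusted p ran from 0.0245 to 0.212. The closest other transcript, Akr1c20, is 93.4% identical over 484 aligned bases in GENCODE M21, so some reads could be shared between them.

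**Figure D4:**
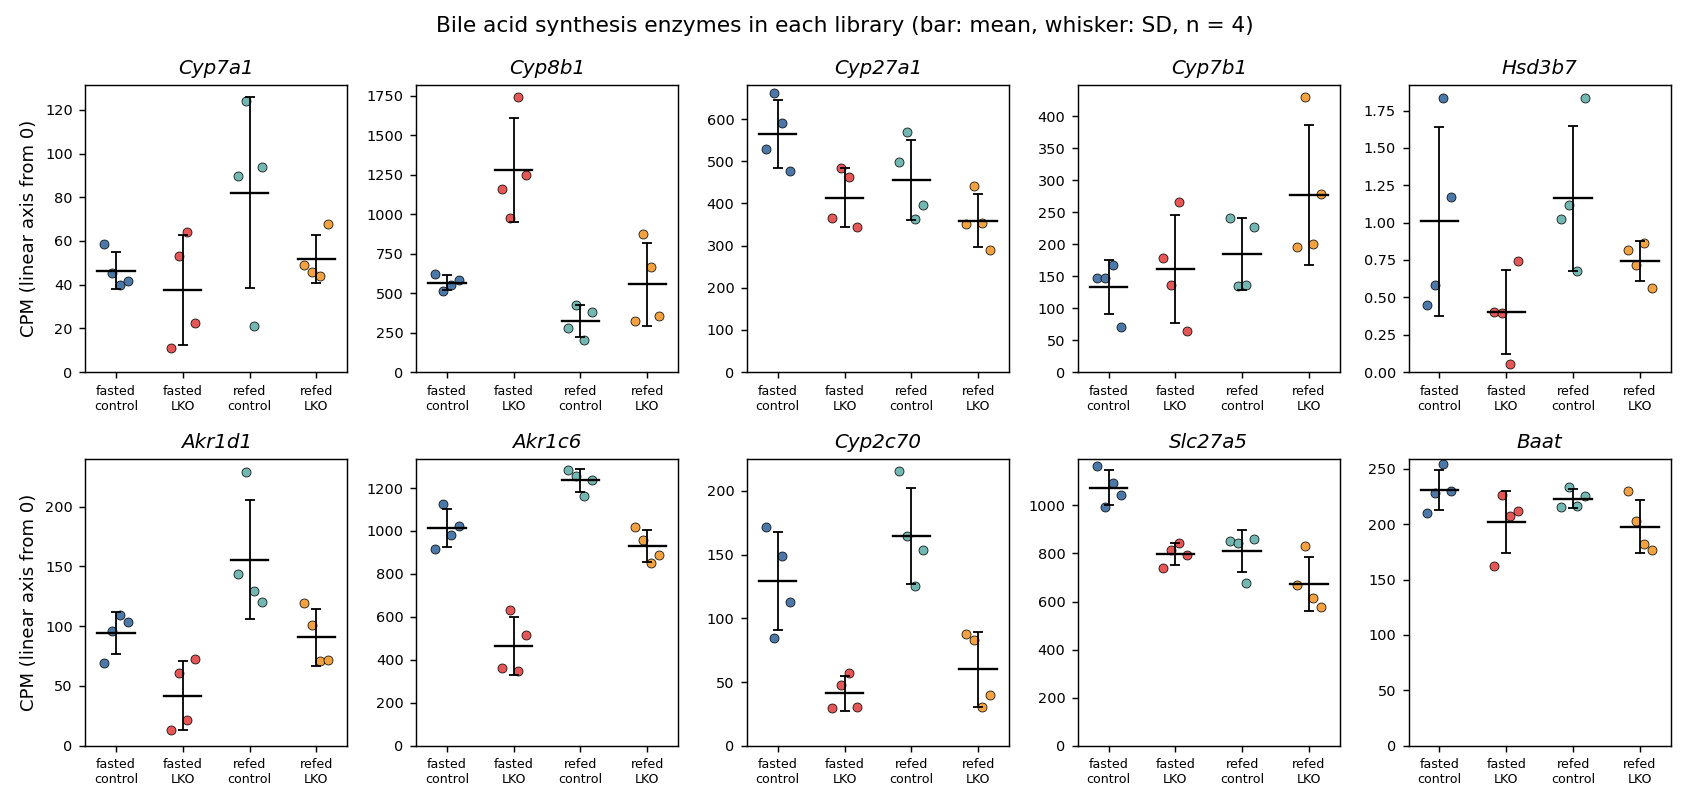
CPM of each gene in each of the 16 libraries, on linear axes from 0, with the mean (bar) and SD (whisker) of 4 libraries per group. Fasted LKO lies wholly above fasted control for Cyp8b1 and wholly below it for Akr1c6, Cyp2c70 and Slc27a5, while Baat is level across the groups.

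Cyp2c70 (ENSMUSG00000060613, chromosome 19: 40141797 to 40175777), the cytochrome P450 that 6-beta-hydroxylates bile acids to muricholic acids in mice, had the largest called change of the 10. It was at 172, 84.3, 149 and 113 CPM in S40 to S43, and in S44 to S47 it had 29.5, 47.9, 57.5 and 30.3 CPM. The highest fasted LKO library was below the lowest control, and the log2 fold change was -1.65 ± 0.33 (SE; edgeR adjusted p = 0.00416), to 31.9% of the control mean. After refeeding, control livers held 216, 164, 126 and 153 CPM (S48 to S51) and LKO livers 88.1, 82.7, 30.1 and 39.9 CPM (S52 to S55). Again no LKO library reached a control library, and the log2 fold change was -1.45 ± 0.33 (adjusted p = 0.0224). That refed call was lost without S48 (adjusted p = 0.0744), S54 (0.0559) or S55 (0.0763), with log2 fold changes of -1.30, -1.23 and -1.30. The interaction was 0.20 ± 0.45 (adjusted p = 0.866), and refeeding changed Cyp2c70 by 0.35 ± 0.32 in control and 0.54 ± 0.32 in LKO, neither called (adjusted p = 0.498 and 0.274).

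Slc27a5 (ENSMUSG00000030382, chromosome 7: 12722273 to 12732119), the bile acyl-CoA synthetase, had smaller and tighter differences. Its levels were 1164, 995, 1093 and 1045 CPM in S40 to S43 and 739, 814, 845 and 792 CPM in S44 to S47, which did not overlap. It was lower in fasted LKO by a log2 fold change of -0.43 ± 0.11 (SE; edgeR adjusted p = 0.0196), a call lost without S40 (0.0596) or S44 (0.0603). In refed control it was at 851, 845, 678 and 861 CPM (S48 to S51), all below the fasted controls, with a change of -0.41 ± 0.11 (adjusted p = 0.0215) that was lost without S40 (0.0714) or S50 (0.0761). Refed LKO libraries held 669, 829, 613 and 578 CPM (S52 to S55) and overlapped refed control, with a log2 fold change of -0.27 ± 0.11 (adjusted p = 0.208). Refed over fasted in LKO was -0.25 ± 0.11 (adjusted p = 0.144), and it was called without S53 (0.0261).

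Baat (ENSMUSG00000039653, chromosome 4: 49489422 to 49506557), which joins activated bile acids to an amino acid, was the steadiest of the 10, with a pooled within-group SD of 0.15 on the log2 CPM scale. All 16 libraries lay between 162 and 254 CPM. LKO over control was -0.19 ± 0.11 (log2, SE) when fasted (edgeR adjusted p = 0.264) and -0.17 ± 0.11 when refed (adjusted p = 0.419), and neither refeeding change was called (adjusted p = 0.792 and 0.889).

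Groups without overlap were found for 4 of 10 genes in the fasted genotype comparison (16.9% of all genes tested), 3 of 10 in the refed one (11.7%), 4 of 10 for refeeding in control (20.4%) and 2 of 10 for refeeding in LKO (20.6%). In the authors' deposited tables, each of which compares a pair of groups, an adjusted p under 0.05 was given to 5 of the 10 for fasted LKO over fasted control and 3 for refed LKO over refed control. It was given to 4 for refeeding in control and 2 for refeeding in LKO. Of the genes tested here, the authors' deposited tables gave such a p to 12.2%, 6.38%, 16.5% and 15.9% in the same order. In the authors' deposited table for the fasted genotypes Cyp27a1 had an adjusted p of 0.0302, and in that for the refed genotypes Akr1c6 had 0.000166 and Akr1d1 0.0173.

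Other genes of bile acid synthesis moved in both directions in fasted LKO. Of 20 such genes 19 were tested, and 9 were called (5 higher, 4 lower), against the background of 12.2%. Without S40 or S44 the number was 5. All genes called also fell, from 1772 of 14488 to 1227 of 14732 without S40 and 1048 of 14685 without S44. Higher were Hsd17b4, the peroxisomal D-bifunctional protein (log2 fold change 0.51 ± 0.10), Acot8, a peroxisomal thioesterase (0.51 ± 0.11), Abcd3, a peroxisomal importer (0.58 ± 0.13), and Slc27a2, a very-long-chain acyl-CoA synthetase (0.45 ± 0.14; SE). Stard5, a START-domain lipid-binding protein, was also higher (0.36 ± 0.09). Other genes of peroxisomal side-chain shortening were not called: Amacr, the racemase, at -0.04 ± 0.12, Acox2, the branched-chain oxidase, at -0.25 ± 0.11, and Scp2, the thiolase, at 0.11 ± 0.09. Lower were Cyp46a1, the cholesterol 24-hydroxylase (-1.37 ± 0.32), Cyp2a12, a bile acid 7-hydroxylase of mice (-0.40 ± 0.10), Fdx1, the ferredoxin that feeds electrons to mitochondrial P450s (-0.56 ± 0.14), and Akr1c14, a 3-alpha-hydroxysteroid dehydrogenase (-0.62 ± 0.18).

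The calls for Hsd17b4, Acot8, Abcd3 and Cyp46a1 held under all 16 alternatives in the fasted state, whereas that for Slc27a2 (edgeR adjusted p = 0.0491) held under 6, that for Akr1c14 under 8, that for Stard5 under 12, and those for Cyp2a12 and Fdx1 under 14. Hsd17b4 was at 529 to 618 CPM in fasted control and 749 to 939 CPM in fasted LKO, without overlap. After refeeding 2 of 19 were called (background 3.63%), both higher in LKO: Hsd17b4 (0.41 ± 0.10, edgeR adjusted p = 0.0283) and Acot8 (0.50 ± 0.11, adjusted p = 0.0191). The number was 0 without S53, 1 without S48, S49, S50, S54 or S55, and 4 by DESeq2 or with no filter. Across those fits all genes called ran from 197 without S48 to 924 by DESeq2. They were 300 without S53 and 477 of 25803 with no filter. Refeeding called 3 of 19 in control (15.8%, beside 15.4% of all genes) and 5 of 19 in LKO (26.3%, beside 18.1%). The control number was 1 without S40 or S50, where 1220 of 14732 and 1365 of 14733 genes were called. The LKO number was 3 without S44, where 2060 of 14685 genes were called. Akr1c14 rose in both, by 0.70 ± 0.18 and 1.52 ± 0.19, and Acot8 fell in both, by 0.45 ± 0.11 and 0.46 ± 0.11; Stard4, a cholesterol carrier, rose in LKO by 1.29 ± 0.27 (SE). The interaction had 0 of 19 called by edgeR, 4 at an unadjusted p under 0.05 (background 16.5%), 1 by DESeq2 and 0 by limma-voom. DESeq2 called 458 of 14488 genes there.

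**Figure D5:**
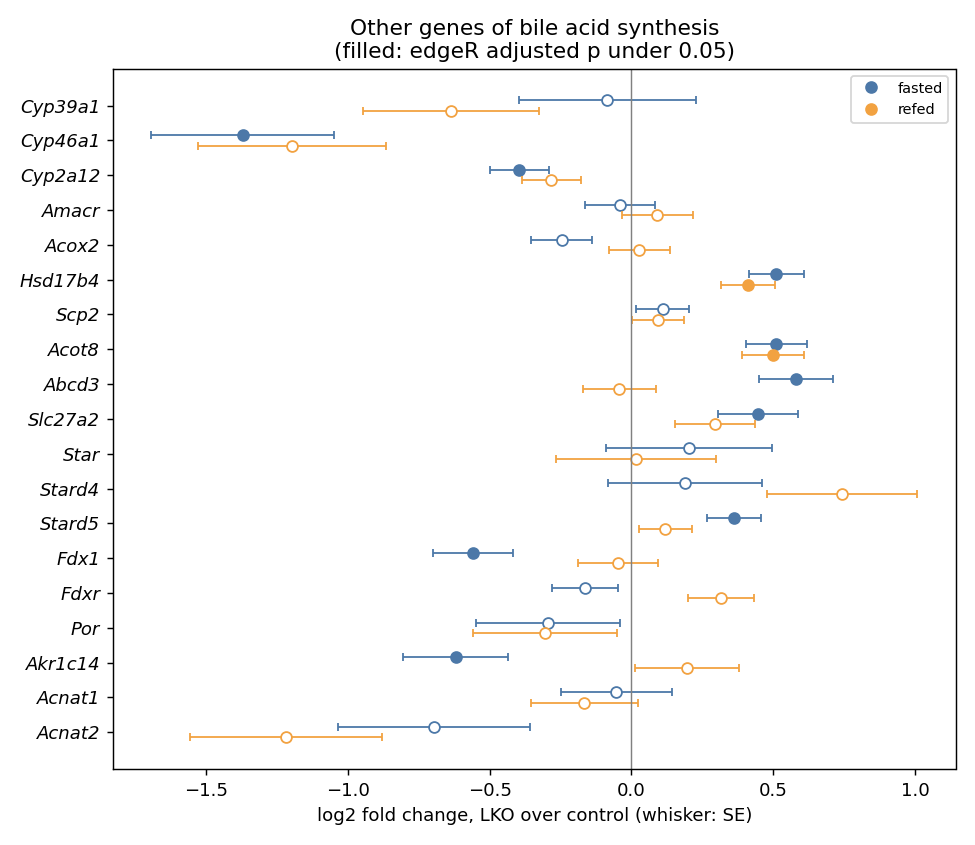
Log2 fold change, LKO over control, of the 19 other bile acid synthesis genes tested, fasted and refed; whiskers are SE and filled points have an edgeR adjusted p under 0.05. Hsd17b4 and Acot8 are filled on the right in both states, and Cyp46a1 lies far left in both but is filled in the fasted state.

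Among 17 regulators of the pathway edgeR called 0 in the fasted genotype comparison (5 at an unadjusted p under 0.05, beside 26.7% of all genes, 0 by DESeq2, 0 by limma-voom). It called 1 in a fit of those groups alone (beside 1249 of 13839 genes) or without S40 (beside 1227 of 14732). Without S45 it called 2, beside 1985 of 14758 genes. In the refed comparison edgeR called 0 (1 at an unadjusted p under 0.05, beside 18.4% of all genes, 1 by DESeq2, 0 by limma-voom) and 1 in a fit of those groups alone. There DESeq2 called 924 of 14488 genes, and the fit of those groups alone 395 of 13770. Nr0b2 was at 41.8 to 119 CPM in fasted control and 26.4 to 48.05 CPM in fasted LKO, groups that overlapped through S40, with a log2 fold change of -1.17 ± 0.39 (SE; edgeR adjusted p = 0.0622). Nr1h4, the bile acid receptor, changed by 0.13 ± 0.11 when fasted (adjusted p = 0.497), and Hnf4a by -0.21 ± 0.15 (adjusted p = 0.394). Refeeding in control had 0 of 17 called by edgeR (2 at an unadjusted p under 0.05, beside 30% of all genes, and 0 by DESeq2 and by limma-voom), and 1 in a fit of those groups alone or without S41. Those fits called 1982 of 13670 and 1965 of 14766 genes. Refeeding in LKO had 3 of 17, beside 18.1% of all genes: Nr1h3, the oxysterol receptor (0.45 ± 0.09), Fgfr4, the receptor for intestinal FGF15 (0.37 ± 0.11), and Klb, its co-receptor (-0.72 ± 0.17). The call for Fgfr4 was lost in a fit of those groups alone and without S44, S46, S52, S53 or S54, with adjusted p up to 0.101.

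Of 15 bile acid transporter genes tested, 4 were called in the fasted genotype comparison, beside 12.2% of all genes. DESeq2 called 6, beside 2140 of 14488 genes. Abcb4, the canalicular phospholipid exporter, was higher in LKO (265.6 to 336 CPM in fasted control, 418 to 604 in fasted LKO; log2 fold change 0.82 ± 0.12, edgeR adjusted p = 0.000753). Lower were the uptake carriers Slc10a1 (-0.60 ± 0.16) and Slco1b2 (-0.41 ± 0.11) and the apical carrier Slc10a2 (-1.71 ± 0.28; SE). The number called by edgeR was 2 without S41, S42 or S44, when the calls for Slc10a1 and Slco1b2 were lost. All genes called were then 1315 of 14766, 1258 of 14774 and 1048 of 14685. Abcb11, the bile salt export pump, changed by -0.57 ± 0.19 in the fasted state (adjusted p = 0.0601) and -0.59 ± 0.19 in the refed state (adjusted p = 0.0984). Refed genotypes had 0 of 15 called by edgeR, 3 at an unadjusted p under 0.05 (background 18.4%), 2 by DESeq2 and 1 by limma-voom. Of 14488 genes, DESeq2 called 924 there and limma-voom 516. Refeeding called 3 in control (background 15.4%) and 3 in LKO (background 18.1%). The control number was 1 without S41, S43, S48 or S50, where 1965, 1499, 1515 and 1365 of all genes were called. The interaction had 1 of 15, Slc10a2 (edgeR adjusted p = 0.0447), beside 0.538% of all genes. That call held under 8 of 23 alternatives, over which all genes called ranged from 8 to 458.

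Markers of hepatocytes and other cell types were compared between the same groups. Of the 7 hepatocyte markers 3 were called lower in fasted LKO (Ttr, Fgb and Ahsg). Over all genes tested, 6.48% were called lower and 5.75% higher in that comparison. The summed level of the 7 markers was 74957 to 82564 CPM in fasted control against 61546 to 71192 in fasted LKO. Apoa1, of the same list, was higher on average in fasted LKO but not called (0.37 ± 0.16, edgeR adjusted p = 0.149). Adipocyte markers (6 genes) summed to 17.9 to 69.3 CPM in fasted control and 4.94 to 12.3 in fasted LKO. Most of that sum was Cfd (9.75 to 58.1 CPM in fasted control, 0.336 to 9.51 in fasted LKO) and Adrb3 (7.01 to 11.2 and 2.67 to 4.92). These were the 2 genes tested, and both were called lower. Adipoq, Plin1, Lep and Retn were at or below 0.497 CPM in every library, too low to show a change in adipocytes. Lymphocyte markers (6 genes) summed to 3.64 to 6.95 CPM in fasted control and 13.03 to 32.8 in fasted LKO, with 2.91 to 4.86 and 15.5 to 37.6 in the refed groups. Jchain, a plasma cell gene, was 1 of 5 tested that was called and made most of that sum, at 0.927 to 3.15 CPM in fasted control and 7.89 to 27.4 in fasted LKO, while Cd3e, Cd3d, Cd79a, Ms4a1 and Nkg7 each stayed under 3 CPM in every library. Red cell markers (5 genes) summed to 383 to 1264 CPM in fasted control and 300.3 to 520 in fasted LKO, which overlapped, with 1 called lower. Their part in the results was not tested.

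Other lists were short, and 12.2% of all genes were called in the fasted genotype comparison. Called there were 0 of 5 cholangiocyte, 0 of 7 Kupffer cell or macrophage, 0 of 6 endothelial, 1 of 6 stellate cell or fibroblast, 0 of 1 neutrophil and 0 of 5 proliferation genes tested. Counts over so few genes cannot show whether a cell type changed. The cholangiocyte genes had a median log2 fold change of 0.75, with S44 as the high library for Krt19, Krt7 and Epcam. Kupffer cell markers summed to 240 to 450 CPM in fasted control and 302 to 430 in fasted LKO, with 205 to 802 and 217 to 321 in the refed groups. For refed LKO over control 3 of 5 proliferation genes were called higher, beside 2.28% of all genes. Library S52 was the highest of refed LKO for Top2a (5.94 CPM, against 1.24 to 3.25 in S53 to S55), Cdk1 (6.04 against 0.989 to 2.56) and Pcna (38.5 against 19.5 to 21.9). Apart from Pcna, no gene of that list exceeded 6.04 CPM in any library. Of hepatocyte genes biased to males 1 of 11 was called lower in fasted LKO (beside 6.48% of all genes) and 0 of 11 in refed LKO (1.35%). Of those biased to females 1 of 5 was called higher in fasted LKO (Acot3, beside 5.75%) and another called lower in refed LKO (Cyp2b13, beside 1.35%). Of 16 clock genes tested, whose levels follow feeding and time of day, 1 was called in the fasted and 0 in the refed genotype comparison, 6 for refeeding in control (background 15.4%) and 7 for refeeding in LKO (background 18.1%). The time of day at which the livers were taken is not given in the sources used here, and refeeding cannot be told apart from the 6 h that passed. Libraries of a group also differed in some clock genes. In fasted LKO, Dbp was at 40.65 CPM in S47 and 151 to 227 in S44 to S46. Arntl was at 9.63 in S47 (1.23 to 2.20 in S44 to S46) and Per3 at 4.16 (12.5 to 24.8). S47 did not stand apart in Nr1d1 (157, with 154 to 180) or Hlf (45.4, with 39.5 to 62.8). Dbp was at 24.0 to 96.7 CPM in refed control and 37.9 to 142 in refed LKO. The part of this spread in the results was not tested.

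Across the 16 libraries genes most like Cyp8b1 in log2 CPM included Cmbl (Pearson r = 0.92) and Gpr107 (0.90). Those most like Cyp2c70 were Inmt (0.96), Nat8f1 (0.92) and Scnn1a (0.92), and with the group means removed Inmt still had r = 0.91. Cyp7b1 was most like Rangap1 (0.91), C6 (0.90) and C8b (0.88), and Cyp7a1 most like Aopep (0.82), Tmem242 (0.81) and Pfkfb1 (0.79). These correlations describe libraries that share groups and scaling, and they were picked as the highest among protein-coding genes with a mean of at least 5 CPM.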

How the data were processed

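Per the labels' protocols, mRNA was captured by its poly-A tail and made into dUTP libraries. Reads were aligned with HISAT2 2.0.5 to mm39, per the submitters' processing notes; the counting tool, its use of strand and its annotation are not given in the sources used here. The authors deposited raw counts per gene, gene lengths in bases, log2 fold changes, and p-values for each of 4 pairs of groups. The deposited per-library normalized and FPKM columns (64 in all) were not used for levels or tests. The normalized ones served only to check the group of each column.

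Joining the 4 tables by gene identifier gave 25803 genes, with 0 counts that differed between tables. The table headings gave each column's group, and 8 of 8 group means were recomputed from the columns. Counts were fitted in R 4.3.3 with edgeR 4.0.16 (filterByExpr, TMM factors of 0.941 to 1.07, glmQLFit over all 16 libraries with group as the factor, glmQLFTest), which left 14488 genes. CPM used the TMM-scaled totals, and log2 CPM a prior count of 2. SE is the log2 fold change over the square root of F. Alternatives were other scalings and filters, DESeq2 1.42.0, limma-voom (limma 3.58.1), the groups of a contrast alone, and leaving out each library. The fit was also run on simulated counts with the same spread for every gene, which does not cover genes as variable as Cyp7a1.

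The 10 genes and the 16 further gene lists were chosen with earlier results of these data known. Named genes were the 10, any gene of a list whose count is given, and for 4 enzymes the 3 most correlated genes, of which 1 is not reported here. Identical stretches came from blastn of GENCODE M21 transcripts, with at least 300 aligned bases.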

Additional observations from a re-analysis of the deposited data

Results flagged for a closer look

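Of 40 sets of 4 libraries examined (10 genes in 4 groups), 1 held a library far from the rest. Slc27a5 in the refed control library S50 was at 677.6 CPM, while the other 3 libraries were at 844.7 to 860.9 CPM, and this gap was 0.912 of the group's range, above Dixon's critical value for 4 samples. Chance gives such a gap in about 1 in 20 groups. S50 was the lowest refed control library for 7 of the 10 genes. S40 was the lowest fasted control for 4, S44 the lowest fasted LKO for 5, and S54 and S55 the lowest refed LKO for 4 each. How often each library was lowest over all genes was not counted.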

How the results depend on the processing

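Of 864 fold changes of the 10 genes recomputed under an alternative, 826 kept their direction and side of the threshold, 15 passed it newly, 8 lost it and 15 changed sign. The number of the 10 called in the fasted genotype comparison was 4. It was 3 to 5 when single libraries were left out, where 1048 to 1985 of all genes were called. In the refed comparison the number of the 10 was 1, 2 in a fit of those groups alone, and 0 to 1 with single libraries left out. All genes called were 395 of 13770 in that fit and 197 to 517 with single libraries left out. For refeeding in control the number of the 10 was 1, then 2 by DESeq2, 2 by limma-voom and 3 in a fit of those groups alone. It was 0 to 2 with single libraries left out. All genes called were 2585 of 14488 by DESeq2, 2346 of 14488 by limma-voom and 1982 of 13670 in that fit. They were 1220 to 2483 with single libraries left out. For refeeding in LKO the number of the 10 was 2. It was 2 to 3 over the alternatives, where 1795 to 2896 of all genes were called. The interaction had 0 of the 10, then 1 by DESeq2 (458 of all genes) and 0 to 1 with single libraries left out (8 to 282 of all genes). Over all genes tested, the refed comparison had 526 called, with 924 by DESeq2 and 197 without S48, and the interaction 78, with 458 by DESeq2, 195 at a mean of at least 5 CPM and 8 without S48; the fasted comparison had 1772, with 1048 without S44. Every sign change was of a gene not called. With single libraries left out, fasted LKO over control ran from -0.70 to 0.0036 for Cyp7a1 (above 0 without S44) and from -0.069 to 0.54 for Cyp7b1 (below 0 without S46). Refeeding in control ran from -0.099 to 0.65 for Hsd3b7 (below 0 without S40 or S51) and from -0.093 to 0.00033 for Baat (above 0 without S42), and refeeding in LKO from -0.12 to 0.039 for Baat (above 0 without S45, S54 or S55). The interaction of Cyp7a1 ran from -0.68 to 0.028 (above 0 without S46) and was 0.19 by limma-voom. It ran from -0.013 to 0.23 for Cyp27a1 (below 0 without S53), from -0.047 to 0.42 for Cyp2c70 (below 0 without S52) and from -0.072 to 0.093 for Baat (below 0 without S42, S44 or S52). The cause was not tested. No paired analysis was possible because the count columns carry no replicate number. Hsd3b7 has no value under the filter of 5 CPM, and its counts limit its precision most. Alternatives for the other gene lists were added after the data were seen.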

Other observations

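Cyp7a1 and Cyp8b1 were set against 17 regulators each (34 relations), using deviations of log2 CPM from the group mean in 16 libraries and an exact two-sided permutation within groups. After Benjamini-Hochberg adjustment 0 of 34 passed. The lowest p was for Cyp8b1 and Nr5a2, with Pearson's r of -0.74 (exact permutation p = 0.00526, adjusted p = 0.179), Spearman's rho of -0.61 (exact permutation p = 0.0185, adjusted p = 0.611), and r of -0.67 without the 2 libraries farthest from the median of Nr5a2. For Cyp7a1 and Nr0b2 r was -0.47 (exact permutation p = 0.0717, adjusted p = 0.421), rho -0.52 (exact permutation p = 0.0471, adjusted p = 0.611), and r without the 2 farthest libraries -0.45.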
